A study of Mus musculus with 6 samples.

Results

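The collagen chain genes were followed in freshly isolated mouse muscle satellite cells with wild type PAX7 or with a PAX7 that carries arginine in place of an acetylated lysine. The members were all protein-coding genes whose mouse symbol is Col, a number, a and a number, and 44 of the 54115 genes with a transcript in the files matched. PAX7 is the paired-box transcription factor that marks satellite cells, the stem cells that lie on muscle fibres beneath the basement membrane. The groups were 3 Pax7WT and 3 Pax7KR libraries on the C57BL/6J background. The Pax7KR mice came from a line made by CRISPR/Cas9 in zygotes and bred to homozygosity, and wild type littermates served as controls. By the study's methods the mice were young adults outside its ageing experiments, and no treatment or injury separated the groups. Cells were taken from hindlimb muscle digested with collagenase and dispase and sorted for α7-INTEGRIN and CD34 and against CD31, CD11b, SCA-1 and CD45. The labels call the libraries biological replicates without tying each to an animal or sort, so the p-values measure the spread between these libraries.

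Collagens are secreted or membrane proteins whose chains wind around each other into a rope-like helix, and each collagen type is built from its own set of chains. Fibrillar collagens (types I, III and V among them) form the fibres of connective tissue, type IV forms the mesh of the basement membrane, and type VI forms beaded filaments next to it. Type V and type VI collagens are known parts of the niche of quiescent satellite cells, which make type V collagen themselves and sense it through the calcitonin receptor, Calcr.

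The libraries held 17822367 to 27908054 estimated reads assigned to transcripts. All 10 satellite cell markers were above 1 CPM (reads scaled to a common library size) in every library, with Pax7 at 1410 to 1666 CPM, a level that does not check the genotype since the changed codon leaves the transcript in place (log2 fold change of Pax7KR over Pax7WT -0.046, SE 0.080). Of the other lists, 9 of 12 fibro-adipogenic markers were above 1 CPM in every library, with a summed level of 1675 to 1766 CPM in Pax7WT and 1764 to 1849 CPM in Pax7KR that came mainly from Gsn and Dpt, while Pdgfra was at 1.51 to 3.81 CPM and Lum at 1.52 to 3.07 CPM. Tenocyte markers (5 of 7 above 1 CPM) summed to 43.1 to 86.1 CPM in Pax7WT and 55.3 to 56.3 CPM in Pax7KR, and endothelial markers (8 of 8) to 271 to 348 CPM in Pax7WT and 305 to 387 CPM in Pax7KR. The endothelial sum came mainly from Tek at 184 to 231 CPM, with Pecam1 at 20.7 to 50.4 CPM and Cdh5 at 15.6 to 35.3 CPM. Smooth muscle and pericyte markers (9 of 9) summed to 2942 to 3413 CPM in Pax7WT and 2805 to 3025 CPM in Pax7KR, mainly from Notch3 at 2052 to 2475 CPM and Des at 417 to 522 CPM, with Myh11 at 17.9 to 45.5 CPM and Rgs5 at 26.5 to 51.0 CPM. Myofibre markers (7 of 8) summed to 101 to 117 CPM in Pax7WT and 84.1 to 108 CPM in Pax7KR. Schwann and glial markers (7 of 8) summed to 355 to 394 CPM in Pax7WT and 328 to 336 CPM in Pax7KR, groups that did not overlap, and immune markers (2 of 8) to 8.49 to 11.7 CPM in Pax7WT and 8.61 to 12.7 CPM in Pax7KR, with Cd3e at 0. In these bulk libraries fewer cells of a type and less RNA per cell cannot be told apart.

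Satellite cells carried a collagen RNA set led by Col3a1. Per length, in TPM (a transcript's share of all transcripts, corrected for length and scaled to a common sum), Col3a1 reached a mean of 627 TPM over the 6 libraries and held 35.0% of all collagen TPM. Next came Col6a1 at 197 TPM, Col4a1 at 187 TPM, Col15a1 at 152 TPM and Col5a3 at 121 TPM. These 5 genes were the only members with a mean of 100 TPM or more. A further 9 members lay between 10 and 100 TPM and 13 between 1 and 10 TPM. The remaining 17 lay under 1 TPM. The 10 highest members held 92.4% of the collagen TPM. In this order the ranges over the 6 libraries did not overlap between Col3a1 and Col6a1, between Col5a3 and Col6a2, between Col4a2 and Col18a1, between Col18a1 and Col19a1, or between Col19a1 and Col16a1. All other neighbours down to Col1a2 overlapped in range. Read within each library, Col4a1 still lay above Col15a1, Col5a1 above Col4a2 and Col16a1 above Col4a5 in all 6. The order of the other overlapping neighbours changed between libraries. Col3a1 ranked 168 among protein-coding genes by mean TPM, and Col1a1 ranked 9618.

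**Figure D1:**
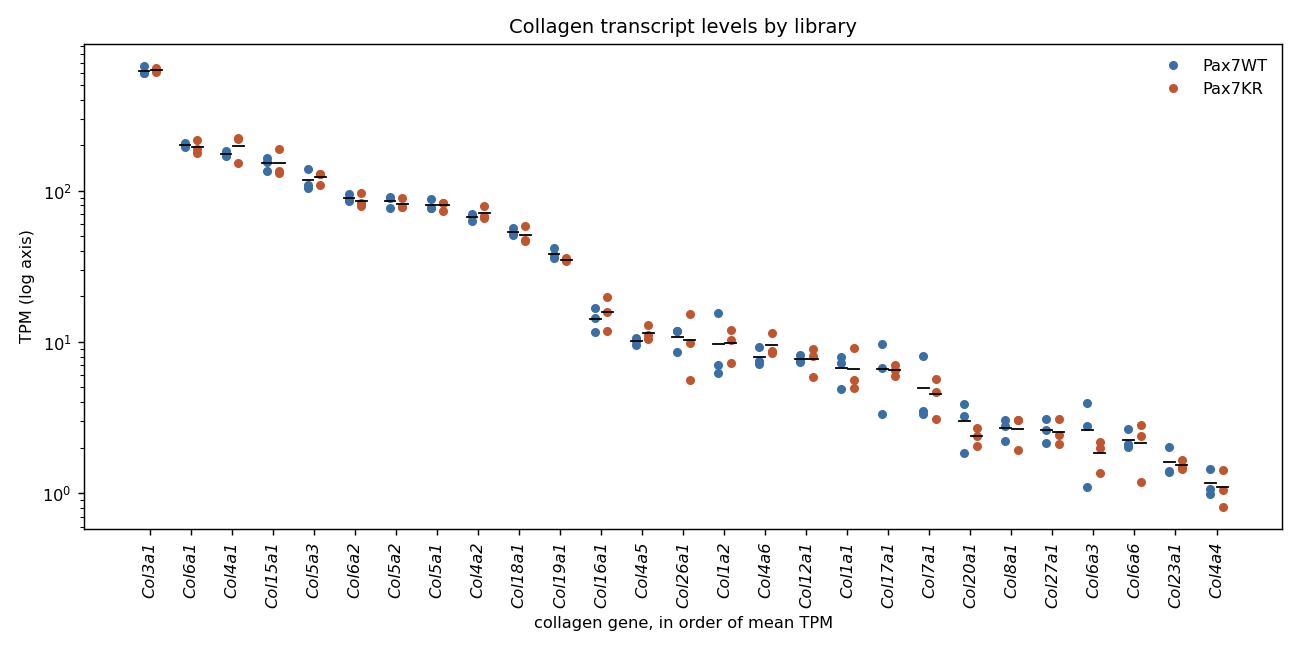
TPM of the 27 collagen genes with a mean of 1 TPM or more, on a log axis, in order of their mean, with 1 point per library (Pax7WT left, Pax7KR right) and a line at each group's mean. The points of Col3a1 lie between 597 and 668 TPM, above all others, and the 2 genotypes lie over each other for nearly every gene.

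Summed over all members, collagen RNA differed between the genotypes by less than the spread between libraries. The sum was 1781 ± 15.4 TPM (SD, n = 3) in Pax7WT and 1804 ± 138 TPM (SD, n = 3) in Pax7KR. In CPM the direction turned, with a sum of 4904 ± 144 CPM (SD, n = 3) in Pax7WT and 4799 ± 282 CPM (SD, n = 3) in Pax7KR. The difference of mean log2 sums in TPM was 0.016, and -0.045 without Pax7KR replicate 1. Collagen reads made up 0.465% to 0.524% of all reads. Of the 44 members, 38 passed the filter on low counts (at least 5 reads in at least 2 libraries). Col9a1, Col9a2, Col25a1, Col6a4, Col6a5 and Col10a1 did not, with at most 10 reads in any library. In edgeR's quasi-likelihood test none of the 38 passed an adjusted p of 0.1, and across all 17152 genes tested the share called was 0% as well, with a smallest adjusted p of 0.302. DESeq2 called 30 genes, or 0.175% of all genes tested, and none of them was a collagen. At an unadjusted p under 0.05 edgeR had 2 of the 38 members against 803 genes, or 4.68%, over all genes. The 2 were Col19a1, lower in Pax7KR, and Col6a3, higher in Pax7KR, and the smallest adjusted p among the members was 0.992. In CPM the 6 values of 3 members did not overlap between the genotypes, against 10.3% of all genes. Of these, Col6a3 and Col23a1 lay above Pax7WT in Pax7KR (5.14% of all genes did) and Col19a1 lay below (5.19% of all genes did). These shares were near the background.

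Among the 38 members, 18 had a higher and 20 a lower estimate in Pax7KR. Their median log2 fold change was -0.012, beside -0.0037 over all genes tested. The median size of the change without its sign was 0.13 in the members and 0.11 over all genes. For 18 members the 95% confidence interval stayed within a 1.5-fold change in either direction, and for 26 within a 2-fold change. Those 26 were all members at 1 TPM or more other than Col6a3, whose interval reached 2.04-fold. For each of the 11 tested members under 1 TPM the interval reached past a 2-fold change, so that a change of that size was not excluded. With transcript length as an offset in the model, 12 rather than 18 of the 38 estimates were higher in Pax7KR and their median was -0.077.

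**Figure D2:**
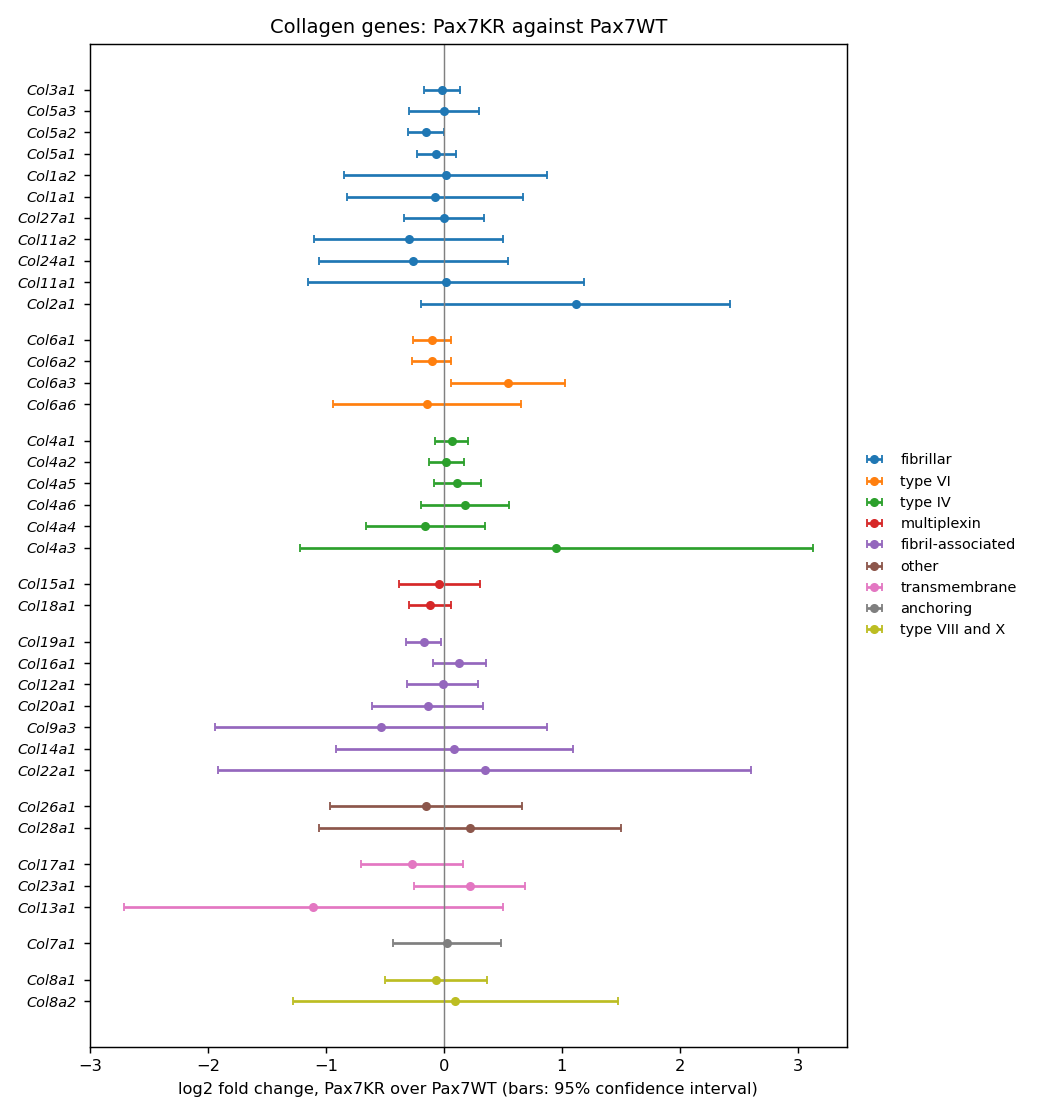
Log2 fold change of Pax7KR over Pax7WT from edgeR for the 38 tested collagen genes, grouped by class and ordered by level within it, with bars for the 95% confidence interval. The intervals of Col19a1 and Col6a3 exclude 0 before adjustment, and the widest belong to genes with few reads such as Col4a3 (0 to 8 reads per library).

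The fibrillar collagens were carried by type III and type V chains, with little type I. Their summed level was 928 ± 32.0 TPM (SD, n = 3) in Pax7WT and 937 ± 37.2 TPM (SD, n = 3) in Pax7KR. Col3a1 encodes the single chain of type III collagen, a fibre of stretchable tissues. It measured 668, 603 and 597 TPM in Pax7WT replicates 1, 2 and 3 and 652, 609.6 and 632 TPM in Pax7KR replicates 1, 2 and 3. These were the steadiest values of all members at 1 TPM or more, with the highest library 1.12-fold above the lowest, and the groups overlapped. Col3a1 had a log2 fold change of -0.014 (SE 0.0697, 95% confidence interval -0.16 to 0.14). Most Col3a1 RNA was its 5564-base transcript Col3a1-201, with 60.6% to 65.7% of the gene's TPM, and a 737-base coding transcript, Col3a1-205, took 29.0% to 36.4%. Counted by Col3a1-201 alone, at 394 TPM, the gene still ranked first of the 44.

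All 3 type V chain genes were expressed, at 73.9 to 140.2 TPM in every library. Type V collagen sets the diameter of type III and type I fibres. Col5a3 measured 109.8, 140.2 and 105 TPM in Pax7WT replicates 1, 2 and 3 and 129.6, 129.9 and 109 TPM in Pax7KR replicates 1, 2 and 3. Col5a2 measured 90.9, 76.6 and 89.4 TPM in Pax7WT replicates 1, 2 and 3 and 89.0, 78.1 and 78.1 TPM in Pax7KR replicates 1, 2 and 3. Col5a1 measured 77.1, 87.8 and 76.8 TPM in Pax7WT replicates 1, 2 and 3 and 83.2, 73.9 and 82.6 TPM in Pax7KR replicates 1, 2 and 3. None of the 3 separated the genotypes, and the highest Col5a1 and Col5a3 values both came from Pax7WT replicate 2. Fitted log2 fold changes were 0.0035 for Col5a3, -0.065 (SE 0.077, 95% confidence interval -0.23 to 0.10) for Col5a1 and -0.15 (SE 0.071, 95% confidence interval -0.30 to 0.0032) for Col5a2. Col5a2 came next after the 2 genes named above, with an unadjusted p of 0.054. Without Pax7WT replicate 2 its unadjusted p was 0.0089, and without Pax7KR replicate 2 it was 0.21. The adjusted p from edgeR was 0.992.

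Type I collagen, the main fibre of tendon and of muscle connective tissue, was low. Col1a1 measured 4.86, 7.27 and 7.90 TPM in Pax7WT replicates 1, 2 and 3 and 9.13, 5.61 and 4.98 TPM in Pax7KR replicates 1, 2 and 3. Col1a2, its partner chain, measured 7.08, 6.25 and 15.6 TPM in Pax7WT replicates 1, 2 and 3 and 12, 10.2 and 7.28 TPM in Pax7KR replicates 1, 2 and 3. Both varied more between libraries than the type V chains, Col1a1 being highest in Pax7KR replicate 1 and Col1a2 in Pax7WT replicate 3. In Pax7WT replicate 3 the tenocyte markers also summed highest, at 86.1 CPM against 43.1 to 56.3 CPM in the other libraries, with Fmod at 24.8 CPM (11 to 14.7 CPM elsewhere) and Thbs4 at 30.0 CPM (14.2 to 22.0 CPM elsewhere). Pax7KR replicate 1, the library with the highest Col1a1, had a tenocyte sum of 56.1 CPM. Their part in the type I levels was not tested. On the log2 scale the fold change was -0.072 (SE 0.30, 95% confidence interval -0.82 to 0.68) for Col1a1 and 0.017 (SE 0.33, 95% confidence interval -0.84 to 0.88) for Col1a2. Col27a1, a fibrillar chain of cartilage, stood at 2.58 TPM (2.62, 2.15 and 3.08 TPM in Pax7WT and 3.10, 2.43 and 2.10 TPM in Pax7KR), with a log2 fold change of 0.0058. The other 4 fibrillar chains were under 1 TPM in the mean: Col2a1, the main chain of cartilage (3 to 25 reads per library), its companions Col11a1 (13 to 35 reads) and Col11a2 (35 to 70 reads), and Col24a1 (21 to 47 reads). The largest fibrillar estimate was that of Col2a1, at 1.12 (SE 0.61, 95% confidence interval -0.19 to 2.43), with groups that overlapped in CPM. In TPM its groups did not overlap, at 0.073 to 0.33 TPM in Pax7WT and 0.38 to 0.46 TPM in Pax7KR. Nor did those of Col11a2, at 0.85 to 1.18 TPM in Pax7WT and 0.59 to 0.81 TPM in Pax7KR. Col11a1 and Col24a1 overlapped in TPM. The share of all genes without overlap in TPM was not counted.

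Of the basement membrane chains, Col4a1 and Col4a2 were high, Col4a5 and Col4a6 low, and Col4a3 and Col4a4 near or below 1 TPM. Type IV chains assemble in fixed sets, of which Col4a1 with Col4a2 is the one found in nearly all basement membranes. Col4a1 measured 169, 173 and 182 TPM in Pax7WT replicates 1, 2 and 3 and 219.9, 223 and 153 TPM in Pax7KR replicates 1, 2 and 3. Col4a2 measured 63.3, 70.4 and 68.1 TPM in Pax7WT replicates 1, 2 and 3 and 78.8, 66.4 and 68.1 TPM in Pax7KR replicates 1, 2 and 3. In TPM Pax7KR replicates 1 and 2 were the highest for Col4a1 and Pax7KR replicate 3 the lowest, so that the groups overlapped. On reads the same gene was tighter, 579, 564 and 534 CPM in Pax7WT replicates 1, 2 and 3 and 615, 574 and 569 CPM in Pax7KR replicates 1, 2 and 3. A 618-base transcript, Col4a1-207, took 0% to 16.2% of the gene's TPM on at most 219 reads, and its part in the wider TPM range was not tested. Their log2 fold changes were 0.067 (SE 0.064, 95% confidence interval -0.072 to 0.21) for Col4a1 and 0.022 (SE 0.068, 95% confidence interval -0.13 to 0.17) for Col4a2. Col4a5, whose loss in kidney causes Alport syndrome, measured 10.7, 9.52 and 10.1 TPM in Pax7WT replicates 1, 2 and 3 and 11.1, 13 and 10.4 TPM in Pax7KR replicates 1, 2 and 3. Col4a6 measured 7.52, 7.15 and 9.30 TPM in Pax7WT replicates 1, 2 and 3 and 8.72, 11.4 and 8.46 TPM in Pax7KR replicates 1, 2 and 3. Both were highest in Pax7KR replicate 2, and neither separated the genotypes, with log2 fold changes of 0.12 (SE 0.093, 95% confidence interval -0.085 to 0.32) for Col4a5 and 0.18 (SE 0.16, 95% confidence interval -0.20 to 0.56) for Col4a6. Col4a4 was at 0.988, 1.07 and 1.45 TPM in Pax7WT and 1.04, 0.814 and 1.42 TPM in Pax7KR with a log2 fold change of -0.16 (SE 0.23, 95% confidence interval -0.66 to 0.35), and Col4a3 had 0 to 8 reads per library. The summed type IV level was 261 ± 9.75 TPM (SD, n = 3) in Pax7WT and 292 ± 44.1 TPM (SD, n = 3) in Pax7KR.

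The 6 type IV genes lie in 3 head-to-head pairs, and the partners of a pair differed in level to very different degrees. Col4a1 and Col4a2 share chromosome 8 (chr8:11198423-11312826 and chr8:11312805-11449287, GRCm38), with the starts of their most abundant coding transcripts 21 bases apart and their first bases overlapping, and the mean TPM of Col4a1 was 2.70 times that of Col4a2. Col4a6 and Col4a5 on chromosome X lie 1308 bases apart, and the mean of Col4a6 was 0.812 times that of Col4a5. Col4a4 and Col4a3 on chromosome 1 lie only 71 bases apart, and the mean of Col4a4 was 28.3 times that of Col4a3. With 0 to 8 reads of Col4a3 per library, the size of this last ratio is uncertain. The bases between Col4a4 and Col4a3 are printed here because they separate partners transcribed in opposite directions. Of the 1308 bases between Col4a6 and Col4a5, only the 120 next to the start of Col4a6 are printed. The stretch before Col3a1 is printed because it precedes the highest member. All 3 are RefSeq promoter sequence of GRCm38.p6, written 5′ to 3′ on the strand of the first gene. Each ends at the base before that gene's start. Capitals mark the letters TATAAA (as in a TATA box), CCAAT, or GGGCGG (as in a GC box), read on either strand and at any position.
Col4a4/Col4a3, chr1:82586850-82586920, minus strand: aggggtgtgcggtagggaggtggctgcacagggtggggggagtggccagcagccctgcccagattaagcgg
Col4a6/Col4a5, chrX:141474077-141474196, minus strand: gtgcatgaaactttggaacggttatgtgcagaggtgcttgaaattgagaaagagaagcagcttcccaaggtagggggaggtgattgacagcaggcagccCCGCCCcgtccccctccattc
Col3a1, chr1:45311418-45311537, plus strand: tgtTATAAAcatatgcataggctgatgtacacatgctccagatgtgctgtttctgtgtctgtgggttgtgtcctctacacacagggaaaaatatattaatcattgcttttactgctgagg
The 71 bases between Col4a4 and Col4a3 held 69.0% G and C and none of the 3 motifs. The 120 bases before Col4a6 held 55.0% G and C and a GGGCGG on the opposite strand. The 120 bases before Col3a1 held 40.0% G and C and a TATAAA. That TATAAA lay at the end of the stretch farthest from the start, and position was not weighed in marking it.

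A RefSeq promoter window was found for 35 of the 44 members, and the window nearest to the start of the most abundant coding transcript was read over its 250 upstream bases. The window of Col16a1, counted for CCAAT and GGGCGG, lay 8150 bases from that start. GGGCGG, the GC box, stood in 21 of the 35 (60.0%) against 32.7% of all 32851 windows. CCAAT stood in 13 (37.1%) against 33.8%, and TATAAA in 5 (14.3%) against 12.4%, Col3a1 and Col17a1 being the members at 1 TPM or more with a TATAAA. The homeodomain palindrome TAATNNATTA, where N is any base, stood in 0 of the 35 windows against 0.384% of all windows. At so small a share, 0 of 35 was likely for any genes and says nothing about PAX7 sites. The paper also counts PAX7 peaks at distances well beyond the 250 bases read. Both strands were read, and none of these motifs lies within another. A match is a run of letters and not a bound site.

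The type VI collagen RNA was that of Col6a1 and Col6a2, with the large partner chain Col6a3 far below. Type VI filaments of muscle are built from these 3 chains. Their genes and close relatives summed to 295 ± 8.97 TPM (SD, n = 3) in Pax7WT and 284 ± 30.6 TPM (SD, n = 3) in Pax7KR. Col6a1 measured 194, 202 and 207 TPM in Pax7WT replicates 1, 2 and 3 and 218, 177 and 188 TPM in Pax7KR replicates 1, 2 and 3. Col6a2, which follows it on chromosome 10 on the same strand with 85161 bases between the genes, measured 87.4, 94.6 and 85.3 TPM in Pax7WT replicates 1, 2 and 3 and 95.8, 78.8 and 83.4 TPM in Pax7KR replicates 1, 2 and 3. Both were highest in Pax7KR replicate 1 and lowest in Pax7KR replicate 2, and the genotypes overlapped, with log2 fold changes of -0.10 (SE 0.075, 95% confidence interval -0.26 to 0.058) for Col6a1 and -0.10 (SE 0.077, 95% confidence interval -0.27 to 0.065) for Col6a2. Of Col6a2, 73.5% to 75.6% of the TPM lay on the 3949-base transcript Col6a2-201 and 18.5% to 21.3% on the 4653-base Col6a2-202. Col6a6, an alternative chain related to Col6a3, measured 2.64, 2.11 and 2.01 TPM in Pax7WT and 2.40, 1.18 and 2.84 TPM in Pax7KR and was lowest in Pax7KR replicate 2, with a log2 fold change of -0.14 (SE 0.33, 95% confidence interval -0.94 to 0.66). Its neighbours on chromosome 9, Col6a5 and Col6a4, had at most 6 reads and 1 read in a library. The Col6a6 transcripts share 4.31% of their 31-base words with other genes, nearly all with Col6a5, the largest such share of the 44 members.

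Col6a3 (chr1:90765923-90843971, minus strand) had more reads in Pax7KR but not a higher level per length, and it did not pass the adjusted test on either scale. In CPM it measured 3.82, 5.98 and 5.75 CPM in Pax7WT replicates 1, 2 and 3 and 9.14, 7.37 and 6.01 CPM in Pax7KR replicates 1, 2 and 3. The 3 Pax7KR values lay above the 3 Pax7WT values, with Pax7WT replicate 1 lowest and Pax7KR replicate 1 highest. The log2 fold change was 0.54 (SE 0.22, 95% confidence interval 0.057 to 1.03), with an unadjusted p of 0.031 and an adjusted p of 0.992 in edgeR. Without Pax7WT replicate 1 the estimate was 0.36 with an unadjusted p of 0.14, without Pax7KR replicate 1 it was 0.37 with 0.16, and without Pax7KR replicate 2 it was 0.56 with 0.056. In TPM it measured 1.09, 3.94 and 2.79 TPM in Pax7WT and 1.99, 1.35 and 2.19 TPM in Pax7KR, with overlapping groups. With transcript length as an offset in the same model the estimate turned to -0.53. A 646-base retained-intron transcript, Col6a3-206, took 0% to 66.7% of the gene's TPM on 0 to 11.7 reads, while the 9001-base coding transcript Col6a3-202 held 74.4 to 180 reads, and the part of the short transcript in the turn of sign was not tested.

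**Figure D3:**
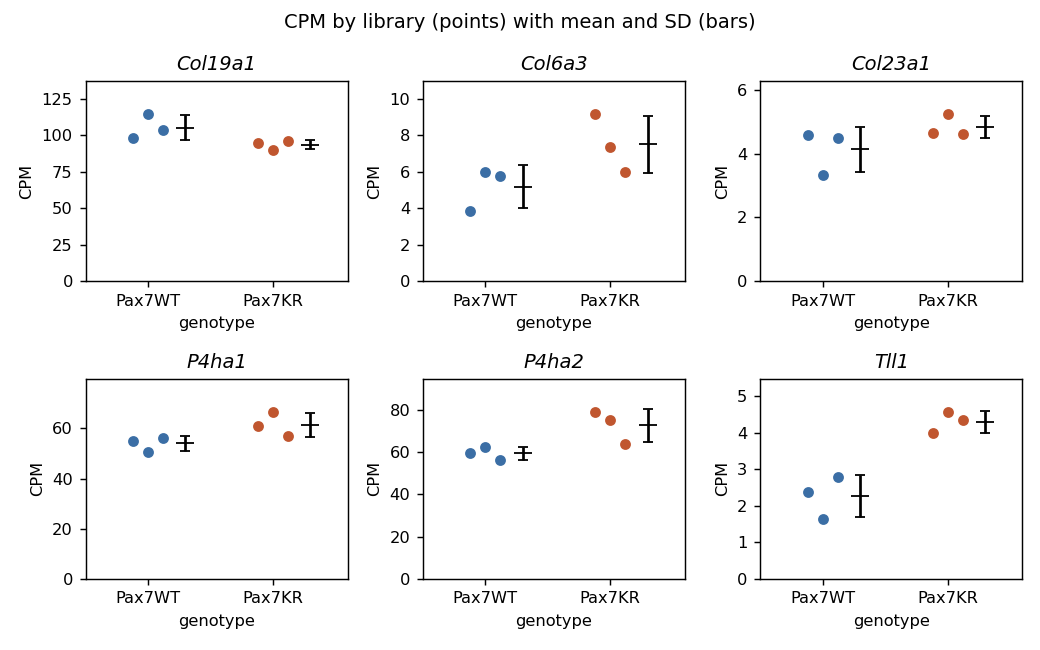
CPM per library for Col19a1, Col6a3, Col23a1, P4ha1, P4ha2 and Tll1, each on its own axis from 0, with the mean and SD of each genotype beside its 3 points. Of these 6 only Col19a1 lies lower in Pax7KR, and its gap between groups (97.8 CPM lowest in Pax7WT, 95.7 CPM highest in Pax7KR) is small beside the spread within Pax7WT.

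Col19a1 led the fibril-associated collagens, which sit on the surface of fibres. It lies at chr1:24261890-24587472 on the minus strand and is known from muscle development and from basement membrane zones. In CPM it measured 97.8, 114 and 103 CPM in Pax7WT replicates 1, 2 and 3 and 94.5, 89.8 and 95.7 CPM in Pax7KR replicates 1, 2 and 3. All Pax7KR values lay below all Pax7WT values, though Pax7WT replicate 1 and Pax7KR replicate 3 differed by little. The log2 fold change was -0.17 (SE 0.069, 95% confidence interval -0.32 to -0.021), with an unadjusted p of 0.028 and an adjusted p of 0.992 in edgeR. The unadjusted p was 0.12 without Pax7WT replicate 2, 0.10 without Pax7KR replicate 2, 0.052 without Pax7KR replicate 1 and 0.0089 to 0.045 without each of the others. In TPM the gene measured 35.9, 41.6 and 37.4 TPM in Pax7WT and 36.0, 34.3 and 34.9 TPM in Pax7KR, and there the groups overlapped. Much of this level was noncoding in the annotation, where the processed transcript Col19a1-203 took 49.5% to 52.8% of the gene's TPM, and the coding Col19a1-202 took 17.7% to 33.7%.

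Col16a1, a fibril-associated chain, measured 11.7, 14.4 and 16.7 TPM in Pax7WT and 15.8, 19.9 and 11.8 TPM in Pax7KR, and 34.8% of its mean TPM lay on coding transcripts, while a transcript marked for nonsense-mediated decay, Col16a1-209, took 24.1% to 45.3%. Col12a1, a fibril-associated chain of tendon and muscle fascia, measured 8.18, 7.65 and 7.41 TPM in Pax7WT and 8.13, 9.01 and 5.86 TPM in Pax7KR. Col20a1 measured 1.85, 3.89 and 3.23 TPM in Pax7WT and 2.05, 2.69 and 2.37 TPM in Pax7KR and shares a locus and strand with a sense-overlapping transcript, so that its reads may be split. None of these 3 separated the genotypes, with log2 fold changes of 0.13 (SE 0.10, 95% confidence interval -0.093 to 0.36), -0.0098 (SE 0.13, 95% confidence interval -0.31 to 0.29) and -0.14 (SE 0.22, 95% confidence interval -0.61 to 0.34) in that order. Col9a3, Col14a1 and Col22a1 had 3 to 36 reads per library. The class summed to 64.4 ± 5.40 TPM (SD, n = 3) in Pax7WT and 62.2 ± 5.65 TPM (SD, n = 3) in Pax7KR.

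The multiplexins Col15a1 and Col18a1, basement membrane collagens that carry sugar chains, came after the fibrillar, type VI and type IV classes, at a summed 205 ± 14.7 TPM (SD, n = 3) in Pax7WT and 202 ± 39.4 TPM (SD, n = 3) in Pax7KR. Col15a1, whose loss causes a mild muscle disease in mice, measured 164, 136 and 155 TPM in Pax7WT replicates 1, 2 and 3 and 189.7, 134 and 131 TPM in Pax7KR replicates 1, 2 and 3. Col18a1, the source of the fragment endostatin, measured 51.1, 52.6 and 57.0 TPM in Pax7WT replicates 1, 2 and 3 and 58.0, 47.2 and 46.8 TPM in Pax7KR replicates 1, 2 and 3. For both the highest value came from Pax7KR replicate 1 and the other 2 Pax7KR values lay below all of Pax7WT, so the groups overlapped. The fitted log2 fold change was -0.037 (SE 0.14, 95% confidence interval -0.38 to 0.31) for Col15a1 and -0.12 (SE 0.083, 95% confidence interval -0.30 to 0.063) for Col18a1. Without Pax7KR replicate 1 the Col15a1 estimate was -0.22. Col18a1 used 2 long coding transcripts at like shares, Col18a1-202 at 27.1% to 36.4% and Col18a1-201 at 25.3% to 37.4%.

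The transmembrane, anchoring and short-chain collagens were all under 10 TPM. Col17a1, a hemidesmosome protein of skin, measured 6.70, 9.72 and 3.35 TPM in Pax7WT and 6.50, 7.04 and 5.96 TPM in Pax7KR, and Col7a1, the anchoring fibril of skin, measured 3.50, 3.34 and 8.02 TPM in Pax7WT and 3.11, 5.69 and 4.70 TPM in Pax7KR. For both, short noncoding transcripts took a large part of the level on few reads: Col17a1-204 (758 bases) 0% to 47.5% of the TPM on at most 26.3 reads, and Col7a1-208 (525 bases) 26.1% to 69.8% on 3.80 to 23.3 reads. The log2 fold change on reads was -0.27 (SE 0.20, 95% confidence interval -0.71 to 0.17) for Col17a1 and 0.029 (SE 0.21, 95% confidence interval -0.43 to 0.49) for Col7a1. Col8a1, a short-chain collagen of vessel walls, measured 2.23, 2.76 and 3.07 TPM in Pax7WT and 3.06, 3.03 and 1.92 TPM in Pax7KR, with a log2 fold change of -0.066 (SE 0.20, 95% confidence interval -0.50 to 0.36). Col26a1, a gene of the unclassified group, measured 11.7, 11.9 and 8.64 TPM in Pax7WT and 15.3, 5.60 and 9.77 TPM in Pax7KR, with Pax7KR replicates 1 and 2 at the opposite ends of its range and a log2 fold change of -0.15 (SE 0.33, 95% confidence interval -0.96 to 0.67). Without Pax7KR replicate 1 that estimate was -0.60. Col8a2 (7 to 19 reads per library) and Col28a1 (5 to 26 reads) were under 1 TPM.

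Col23a1, a transmembrane collagen (chr11:51289920-51583918, plus strand), measured 4.59, 3.33 and 4.48 CPM in Pax7WT replicates 1, 2 and 3 and 4.64, 5.24 and 4.63 CPM in Pax7KR replicates 1, 2 and 3. The 3 Pax7KR values lay above the 3 Pax7WT values by a narrow margin, 4.63 CPM against 4.59 CPM at the closest. The log2 fold change was 0.22 (SE 0.22, 95% confidence interval -0.25 to 0.69), and the adjusted p from edgeR was 0.998. In TPM it measured 1.41, 2.03 and 1.37 TPM in Pax7WT and 1.49, 1.67 and 1.44 TPM in Pax7KR, with overlapping groups, and with transcript length as an offset the estimate was -0.11. In Pax7WT replicate 2 a 521-base transcript, Col23a1-202, took 53.9% of the gene's TPM on 4 reads, and it had 0 reads in the 3 Pax7KR libraries. Col13a1, the transmembrane collagen of the neuromuscular junction, had 3 to 16 reads per library and an estimate of -1.11 (SE 0.74, 95% confidence interval -2.71 to 0.50).

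The highest and lowest values came from libraries of both genotypes. Of the 27 members at 1 TPM or more, Pax7WT replicates 1, 2 and 3 had the highest CPM for 2, 6 and 5 and the lowest for 5, 4 and 4. Pax7KR replicates 1, 2 and 3 had the highest for 9, 4 and 1 and the lowest for 0, 10 and 4. The ratio of the highest to the lowest library in CPM was 1.12 for Col3a1, 1.15 for Col4a1 and 1.15 for Col4a2. It was largest for Col6a6 at 2.47, Col6a3 at 2.39 and Col26a1 at 2.22. Without Pax7KR replicate 1, 11 of the tested members were higher in Pax7KR, and without Pax7KR replicates 2 or 3 this number was 20. The number at an unadjusted p under 0.05 was 6 without Pax7KR replicate 1, 4 without Pax7WT replicate 3, 1 without Pax7WT replicate 1 and 0 without Pax7KR replicate 2.

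Ratios between the RNAs of chains that assemble together were read within each library. The ratio of Col6a1 to Col6a2 in TPM was 2.22, 2.13 and 2.42 in Pax7WT and 2.27, 2.25 and 2.25 in Pax7KR. Col4a1 to Col4a2 was 2.66, 2.46 and 2.67 in Pax7WT and 2.79, 3.36 and 2.24 in Pax7KR. The wider Pax7KR range held in TPM only, and in CPM Pax7KR was not the wider group. Col4a1 itself varied 1.46-fold between libraries in TPM and 1.15-fold in CPM. Col5a1 to Col5a2 was 0.848, 1.15 and 0.859 in Pax7WT and 0.935, 0.946 and 1.06 in Pax7KR. Type I collagen contains more of the Col1a1 than of the Col1a2 chain. The RNA ratio of Col1a1 to Col1a2 was 0.687, 1.16 and 0.505 in Pax7WT and 0.761, 0.548 and 0.684 in Pax7KR, above 1 only in Pax7WT replicate 2. An 850-base transcript, Col1a2-205, took 0% to 25.4% of the Col1a2 TPM on at most 32.2 reads. On the main coding transcripts alone the means were 6.63 TPM for Col1a1 and 7.79 TPM for Col1a2. Col3a1 to Col1a1 ranged from 71.4 to 137 over the 6 libraries and Col5a1 to Col5a3 from 0.569 to 0.755. Col6a3 to Col6a1 ranged from 0.0056 to 0.019. In TPM none of the 7 ratios separated the genotypes. The exact two-sided permutation p on the log2 ratios lay between 0.6 and 1 where 0.1 is the smallest that 3 against 3 can give. After Benjamini-Hochberg adjustment over the 7 ratios in TPM each p was 1. In CPM the same test gave Col6a3 to Col6a1 that smallest p of 0.1, with a difference of log2 ratios (Pax7KR minus Pax7WT) of 0.65. The other pairs had a p of 0.5 or more in CPM.

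**Figure D4:**
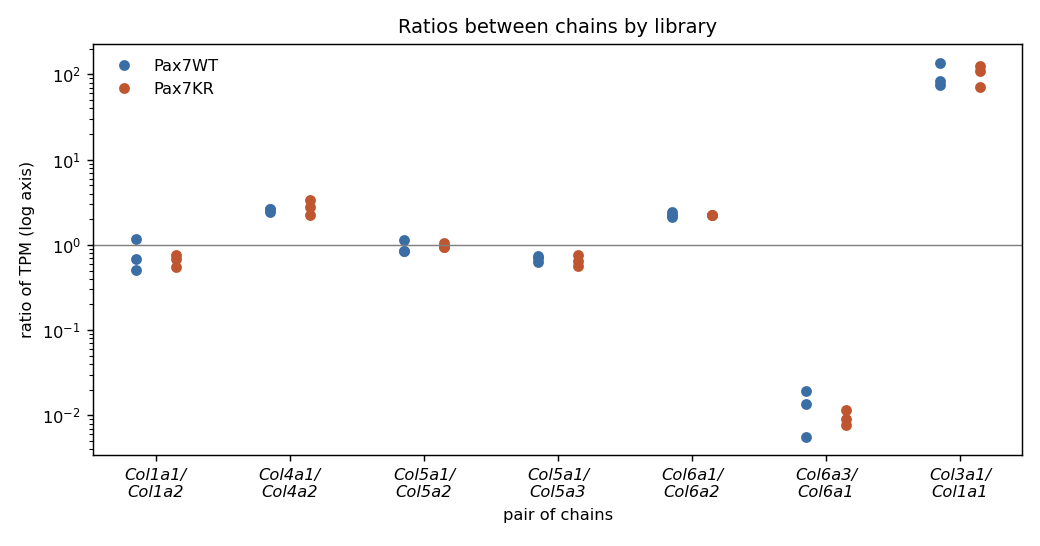
Ratio of TPM between 7 pairs of collagen chains, on a log axis, with 1 point per library (Pax7WT left, Pax7KR right) and a line at 1. Col3a1/Col1a1 lies between 71.4 and 137, Col6a3/Col6a1 under 0.020, and the genotypes overlap for every pair.

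The genes that build or bind collagen ranged from 0 TPM for Tll2, a procollagen protease, to 538 TPM for Sparc in the mean. A list of 48 assembly and receptor genes was read alongside, of which 45 were tested, 22 with a higher and 23 with a lower estimate in Pax7KR and a median log2 fold change of -0.0059. None passed an adjusted p of 0.1, and 3 of the 45 had an unadjusted p under 0.05, beside the 4.68% of all genes. All 3 had the higher estimate in Pax7KR, namely the collagen prolyl 4-hydroxylase subunits P4ha1 and P4ha2 and the procollagen protease Tll1. P4ha2 measured 59.4, 62.5 and 56.1 CPM in Pax7WT replicates 1, 2 and 3 and 78.9, 75.1 and 64.0 CPM in Pax7KR replicates 1, 2 and 3. P4ha1 measured 55.2, 50.8 and 56.1 CPM in Pax7WT replicates 1, 2 and 3 and 61.1, 66.6 and 56.9 CPM in Pax7KR replicates 1, 2 and 3. Tll1 measured 2.39, 1.64 and 2.78 CPM in Pax7WT replicates 1, 2 and 3 and 3.98, 4.57 and 4.35 CPM in Pax7KR replicates 1, 2 and 3. In all 3 genes every Pax7KR value in CPM lay above every Pax7WT value. In CPM 5 of the 45 genes did not overlap between the genotypes, beside 10.3% of all genes. In TPM P4ha1 overlapped, at 26.9 to 32.1 TPM in Pax7WT and 31.4 to 37.6 TPM in Pax7KR, while P4ha2 and Tll1 did not. The log2 fold change was 0.29 (SE 0.083, 95% confidence interval 0.11 to 0.47) for P4ha2, 0.19 (SE 0.077, 95% confidence interval 0.021 to 0.35) for P4ha1 and 0.92 (SE 0.27, 95% confidence interval 0.34 to 1.49) for Tll1, each with an adjusted p of 0.992 in edgeR. For P4ha2 the adjusted p was 0.045 with no filter on low counts and 0.18 to 1.00 under the other settings tried. The partner subunit P4hb, which both enzymes share, stood at 252 TPM with a log2 fold change of -0.075, and the prolyl isomerase Ppib at 242 TPM with one of 0.042. Crtap, of the prolyl 3-hydroxylation complex, stood at 58.4 TPM.

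Among the other roles, 0 of 5 lysyl hydroxylation and glycosylation genes, 0 of 6 chaperone and export genes, 0 of 5 cross-linking genes and 0 of 13 tested receptors had an unadjusted p under 0.05, and Tll1 was the only such gene of the 7 tested for propeptide removal. Sparc, which binds collagen on its way out of the cell, had the highest level of the list at 538 TPM, and Serpinh1, the collagen chaperone HSP47, stood at 184 TPM, ranging from 166 to 213 TPM. The export factor Mia2 stood at 95.8 TPM. Colgalt1, Plod2 and Plod3, which put sugars or hydroxyl groups on collagen lysines, stood at 79.1, 46.8 and 43.4 TPM. Bmp1, which cuts off the propeptide of fibrillar chains, stood at 166 TPM, its enhancer Pcolce at 29.8 TPM and Pcolce2 at 5.36 TPM. Of the cross-linking enzymes, Loxl1 was the highest at 116 TPM, ahead of Loxl2 at 24.3, Loxl3 at 10.1 and Lox at 5.78 TPM.

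On the receptor side, the integrin subunit Itgb1 stood at 293 TPM, while the collagen-binding partners Itga1, Itga2, Itga10 and Itga11 stood at 2.41, 0.349, 1.81 and 1.07 TPM. Mrc2, which takes up collagen, stood at 157 TPM and the tyrosine kinases Ddr1 and Ddr2 at 68.0 and 54.4 TPM. Calcr, the receptor named above for type V collagen, measured 136, 125 and 147 TPM in Pax7WT replicates 1, 2 and 3 and 150.3, 144 and 119.6 TPM in Pax7KR replicates 1, 2 and 3. Its groups overlapped, with a log2 fold change of -0.037 (SE 0.081, 95% confidence interval -0.21 to 0.14). Ddr1 had a log2 fold change of -0.14 (SE 0.086, 95% confidence interval -0.33 to 0.0501) and Ddr2 of 0.0401 (SE 0.0702, 95% confidence interval -0.11 to 0.19). Antxr1 is a type VI collagen receptor and Cspg4 a proteoglycan that binds type VI collagen. In CPM they were the list's 2 genes whose Pax7KR values all lay below Pax7WT, as did 5.19% of all genes. In TPM the groups of both overlapped, Antxr1 at 71.1 to 76.0 TPM in Pax7WT and 66.0 to 74.2 TPM in Pax7KR. Cspg4 stood at 5.70 to 6.59 TPM in Pax7WT and 5.99 to 6.13 TPM in Pax7KR. The log2 fold changes were -0.13 (SE 0.062, 95% confidence interval -0.27 to 0.0014) for Antxr1 and -0.18 (SE 0.10, 95% confidence interval -0.39 to 0.037) for Cspg4. In edgeR their unadjusted p was 0.052 and 0.097 in that order, and the adjusted p was 0.992 for both.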

How the data were processed

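RNA of sorted satellite cells was made into stranded libraries and read as paired ends, and the authors quantified it with salmon 1.3.0 against GENCODE mouse transcripts (GRCm38) with the genome as decoy. The deposited files give estimated counts and TPM per transcript in each library. TPM divides by each library's own effective transcript lengths. A deposited table of the authors' own comparison (mean normalised count, log2 fold change, SE, p-value and adjusted p per gene) was not used.

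Transcripts were summed to genes with GENCODE vM21, which matched 139791 of 140992 transcripts (99.148%). The 1201 others held 0.592% to 0.634% of reads. Counts were rounded, genes with at least 5 reads in at least 2 libraries kept (17152), and Pax7KR compared with Pax7WT by edgeR 4.0.16 (quasi-likelihood, TMM, Benjamini-Hochberg, call at adjusted p under 0.1, as the study's cutoff). DESeq2 1.42.0 and limma 3.58.1 were alternatives. The model was tested on simulated data, where it did not call every gene given a known change. All pairs of libraries differed beyond sampling noise (chi-square per gene 10.2 to 23.3).

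Members and lists were chosen with earlier results of these data known. Values per library are given for members at a mean of 1 TPM or more, and for P4ha1, P4ha2, Tll1 and Calcr. Of the 48 partner genes, those with an unadjusted p under 0.05, the 3 highest of each role, and Serpinh1, Lox, Ddr1, Ddr2 and Calcr are named. Antxr1, Cspg4 and the receptor subunits Itga1, Itga2, Itga10 and Itga11 were named after their values were seen.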

Additional observations from a re-analysis of the deposited data

How the results depend on the processing

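No collagen was called at an adjusted p of 0.1 under any setting tried. Over all genes edgeR called 0, DESeq2 30, edgeR with no filter on low counts 157, and edgeR with 1 library left out 1 to 32. With the replicate number as a block it called 13. The numbers did not pair the libraries (correlations of same-numbered deviations 0.005, 0.027 and -0.044), and the block changed no call among the members. Collagens at an unadjusted p under 0.05 numbered 2, and 1 with total reads as the only scaling, 5 with no filter, 1 with the length offset and 0 to 6 with 1 library left out. For the partner genes this number was 3, and 6 with no filter and 2 to 5 with 1 library left out. Collagens higher in Pax7KR numbered 18, and 11 to 20 with 1 library left out. Of 816 values of 51 named genes under other settings, 747 kept their direction and 69 turned, and 21 genes never turned. P4ha2 was the only named gene to pass the threshold, with no filter.

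With total reads only, the log2 fold change turned to 0.017 for Col3a1, 0.021 for Col12a1, 0.017 for Sparc, 0.010 for Loxl2, 0.0050 for Colgalt1 and 0.013 for Itgb1. With the length offset it turned to -0.0087 for Col5a3, -0.030 for Col1a2, -0.19 for Col7a1, -0.11 for Col27a1, -0.53 for Col6a3, -0.11 for Col23a1, 0.041 for Mia2, -0.055 for Plod3 and -0.027 for Ddr2. In CPM the difference of log2 ratios (Pax7KR minus Pax7WT) turned to -0.0046 for Col6a1 to Col6a2 and 0.65 for Col6a3 to Col6a1. The cause was not tested.

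With 1 library left out, the log2 fold change ranged from -0.0600 to 0.021 for Col3a1, from -0.22 to 0.053 for Col15a1, from -0.077 to 0.16 for Col5a3, from -0.10 to 0.011 for Col5a1, from -0.036 to 0.067 for Col4a2, from -0.60 to 0.063 for Col26a1, from -0.14 to 0.37 for Col1a2, from -0.14 to 0.13 for Col12a1, from -0.37 to 0.083 for Col1a1, from -0.0797 to 0.25 for Col7a1, from -0.33 to 0.015 for Col20a1, from -0.18 to 0.11 for Col8a1, from -0.078 to 0.086 for Col27a1, from -0.42 to 0.16 for Col6a6, from -0.41 to 0.025 for Col4a4, from -0.042 to 0.037 for Sparc, from -0.10 to 0.088 for Serpinh1, from -0.12 to 0.11 for Loxl2, from -0.059 to 0.032 for Colgalt1, from -0.013 to 0.0798 for Plod2, from -0.089 to 0.11 for Plod3, from -0.11 to 0.014 for Crtap, from -0.026 to 0.19 for Bmp1, from -0.26 to 0.11 for Pcolce2, from -0.041 to 0.00014 for Itgb1, from -0.11 to 0.0303 for Calcr and from -0.0065 to 0.11 for Ddr2. The difference of log2 ratios ranged from -0.44 to 0.16 for Col1a1 to Col1a2, from -0.053 to 0.24 for Col4a1 to Col4a2, from -0.0202 to 0.20 for Col5a1 to Col5a2, from -0.18 to 0.023 for Col5a1 to Col5a3, from -0.039 to 0.052 for Col6a1 to Col6a2, from -0.80 to 0.096 for Col6a3 to Col6a1 and from -0.11 to 0.33 for Col3a1 to Col1a1.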
